A study of Mus musculus with 9 samples.

Results

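Imprinted genes are expressed mainly from the copy inherited from 1 parent. The 38 imprinted genes described here were the rows of a mouse count table whose gene symbol stood in a fixed list, and all 38 were found among its 24062 rows. By textbook knowledge, 16 of them are expressed from the maternal copy and 21 from the paternal copy, and Gnas makes transcripts of either origin. RNA came from C57BL/6 mouse embryonic fibroblasts at day 10, in 9 libraries. The control was an empty vector delivered by lentivirus (EV, 3 libraries), set against overexpression of p21 (p21OE, 3 libraries) and of p16 (p16OE, 3 libraries). The proteins p21 and p16 block the kinases that drive the cell cycle, and either can bring on senescence, a lasting arrest of division. Senescent is also what the control libraries' own status label says. The p16 libraries carry tissue (embryo) and strain labels but no lentivirus label, and their group was taken from their titles. Their records were numbered apart from the others, and if they were also prepared apart, that cannot be told apart from p16. The origin of the 3 libraries of a group, whether distinct embryos, distinct cultures or neither, is not in the labels. The p-values therefore reflect only how far these libraries differ, part of which may be technical.

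The parental copies of an imprinted gene carry different DNA methylation at a control region, set in the egg or the sperm and kept through every later cell division. Imprinted genes lie in clusters, in which a long noncoding RNA from 1 parental copy often goes with protein-coding genes from the other, and many of them act on fetal growth. In fibroblasts and other cells taken from embryos several, H19, Igf2 and Dlk1 among them, are abundantly transcribed. The reads were counted per gene without regard to the parental copy, so the values below are total RNA levels and say nothing of imprinting itself. Several of the maternal genes are imprinted only in some tissues, such as Ube3a in neurons and Cd81 in the placenta.

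Libraries held 56.9 to 76.1 M counts. The labels were checked on the overexpressed genes. Cdkn1a, which encodes p21, was 3.09-fold higher in p21 than in control cells (adjusted p = 8.05e-06), and Cdkn2a, which encodes p16, rose 16.1-fold with p16 overexpression (adjusted p = 6.8e-07, edgeR quasi-likelihood test with Benjamini-Hochberg adjustment over all genes, as for all adjusted p below unless another tool is named). Replicate 3 of each group stood apart in sex-linked RNA: Xist lay between 157.8 and 396.8 CPM there and at no more than 1.344 CPM in the other 6 libraries. The Y-linked Ddx3y was at 1.102, 10.77 and 1.265 CPM in replicate 3 of control, p21 and p16, and at 50.08 to 68.54 CPM in the other 6. All 8 fibroblast markers listed were detected. Their summed level was 35200 to 50800 CPM in control, 51500 to 55100 in p21 and 46900 to 53900 in p16 libraries. Of the 8, 2 were higher and 1 lower in p21 than in control cells. Mean Fn1 went from 12450 CPM in control to 22300 in p21 cells, while Col1a1 (14550 to 14260) did not rise. Mean Pdgfra went from 29.37 to 12.42 CPM, with every p21 library below every control library. Summed macrophage markers (5 of the 6 listed were measured) lay at 8.09 to 9.44 CPM in control, 18.2 to 33.1 in p21 and 6.28 to 9.88 in p16 libraries, and 3 of the 5 were higher in p21 than in control cells. Summed skeletal muscle markers lay at 101 to 138, 291 to 399 and 196 to 210 CPM, nearly all of it Acta1, with Myf5 at 0 reads and no library above 4 reads of Myod1 or Myog. The 6 fat cell markers summed to 20.6 to 30.7, 18.2 to 25.6 and 21.2 to 24.8 CPM in control, p21 and p16 libraries. Of the 3 that passed the filter on low counts (Pparg, Fabp4 and Cebpa), 1 was lower in p21 than in control cells and none higher, and Lep was at 0. None of the 6 trophoblast markers passed the filter on low counts (at most 0.526 CPM summed), and the part of any of these cells in the results below was not tested. In bulk RNA, fewer cells of a type and less RNA per cell cannot be told apart.

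CPM are counts per 1 M counts of the library after TMM scaling, which sets libraries on a common scale. For comparing genes with each other, CPM were also divided by the length of each gene's exons in kilobases. On that scale the control means were 144 CPM per kb for H19, 101 for Cd81, 97.3 for Gnas, 85.2 for Grb10 and 58.9 for Igf2. The H19 mean came from 62.6, 101 and 269 CPM per kb in replicates 1 to 3, and only in replicate 3 did H19 exceed Cd81, which stood at 98.4, 105 and 100. In p21 cells Cd81 led at 134 CPM per kb and H19 stood at 41.7, behind Gnas, Grb10, Igf2 and Igf2r as well. Ascl2, a transcription factor of trophoblast stem cells, had 33 reads in all 9 libraries together and Usp29 had 36, and neither was tested. Snrpn, which encodes a spliceosome protein of neurons, was listed at 0 reads in all 9 libraries, where a count of 0 allows 3 reads or 0.0394 to 0.0528 CPM. It shares its locus with Snurf, also listed at 0, and how reads of overlapping genes were counted is not given in the sources used here, so 0 is not read as absence. This left 35 of the 38 tested. Phlda2, a brake on placental growth, passed the filter on 89 reads in all. The kit does not mark the strand, and 13 of the 38 share bases with a gene on the opposite strand (Airn with Igf2r, Zrsr1 with Commd1, Mest with Copg2 and Gnas with Nespas among them), so their counts may hold each other's reads.

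Compared with control cells, 7 of the 35 tested genes were higher in p21 cells and 11 were lower (18 in all, 51.4%, against 39.9% of all 14572 genes tested). Impact, Cd81, Ndn, Zrsr1, Copg2, Igf2r and Gnas rose, and H19, Dlk1, Dio3, Mkrn3, Asb4, Nnat, Peg10, Sgce, Commd1, Peg12 and Nap1l4 fell. The median log2 fold change over the 35 was -0.29, against -0.01 over all genes. Of the 15 maternally expressed genes tested, 3 rose and 4 fell (median -0.12), and of the 19 paternally expressed genes 3 rose and 7 fell (median -0.39). Without p21 replicate 1 the calls were 6 higher and 6 lower for the 35, 2 and 2 for the maternal and 3 and 4 for the paternal genes. Without control replicate 2 or without p21 replicate 2, 7 of the 35 were higher and 7 lower. Of all genes, 19.3% were called higher and 20.7% lower in the fit of the 9 libraries. The counts of imprinted genes with libraries left out are not set beside a share of all genes at the same setting. With replicates 1 and 2 of each group only, 8 were higher and 14 lower, the 18 above among them, with Plagl1 added to the former and Mest, Peg3 and Zdbf2 to the latter. The libraries of the p21 and control groups did not overlap for 17 of the 35 (7 higher and 10 lower, or 48.6%, against 49.8% of all genes).

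**Figure D1:**
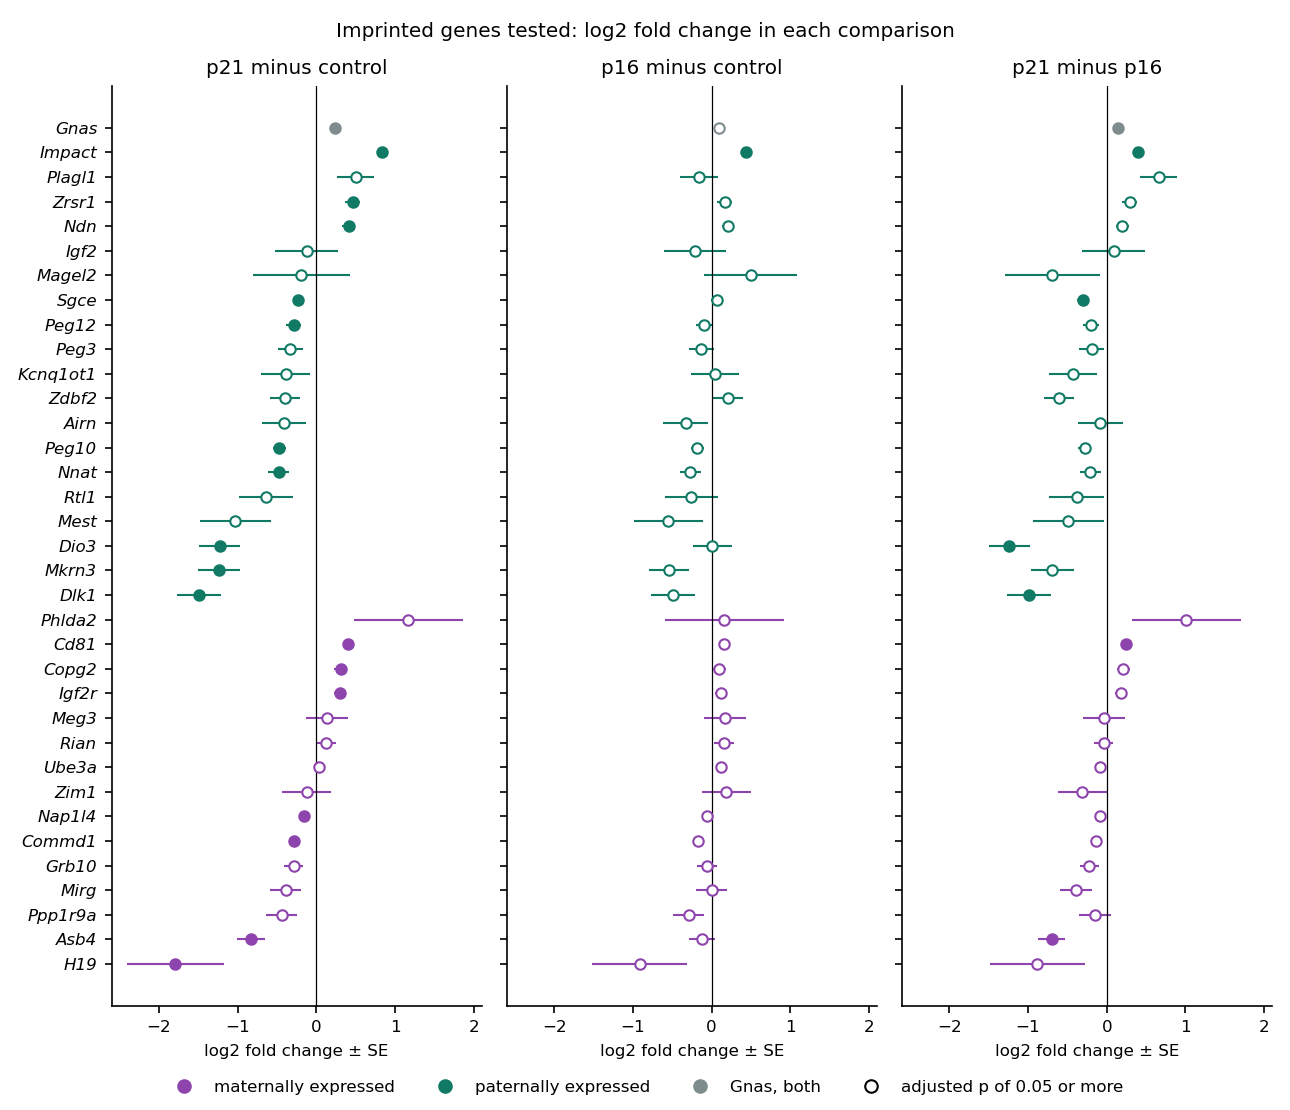
Log2 fold change with its standard error (horizontal axis) for each of the 35 imprinted genes tested (rows) in the 3 comparisons (panels). Filled points passed the adjusted p threshold of 0.05: 18 for p21 minus control, 1 for p16 minus control and 7 for p21 minus p16. Bars that cannot be seen are shorter than the symbol.

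In p16 cells a single gene of the 35 passed: Impact was higher (1 of 35, 2.86%, against 7.22% of all genes, 3.57% higher and 3.65% lower), and none was lower. At an unadjusted p under 0.05, 5 were higher and 1 was lower, with no count of all genes at that p to set beside it. DESeq2 called 2 higher (Impact and Cd81) and none lower, against 935 higher and 885 lower of all genes with DESeq2. With the replicate number as a block, 3 were higher (Impact, Ndn and Cd81) and 3 lower (Dlk1, H19 and Igf2), 6 in all (17.1%, against 17.0% of all genes with the block). The median log2 fold change of the 35 was 0.0, and the p16 and control libraries did not overlap for 5 higher and 2 lower genes of the 35, against 28.7% of all genes. Between p21 and p16 cells, which is the test of the difference between the effects of p21 and p16, 3 were higher in p21 cells (Impact, Cd81 and Gnas) and 4 lower (Dlk1, Dio3, Sgce and Asb4), 7 of 35 in all, against 12.8% of all genes (6.19% higher and 6.64% lower). With the block that count was 18, 8 higher (with Plagl1, Zrsr1, Igf2r, Copg2 and Ndn added) and 10 lower (with Zdbf2, Grb10, Mirg, Peg10, Peg3 and H19 added), or 51.4%, against 24.0% of all genes with the block. Leaving out 1 library gave between 1 gene called (without p21 replicate 1) and 7 (without p21 replicate 3). In the latter, Plagl1 and Zdbf2 were called in place of Dlk1 and Gnas. The count was 3 without p21 replicate 2 (Impact, Cd81 and Peg10). It was 2 without p16 replicate 1, 4 without p16 replicate 2 and 2 without p16 replicate 3, and Impact was called each time. The p21 and p16 libraries did not overlap for 7 higher and 12 lower of the 35 (54.3%, against 36.0% of all genes).

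H19, a maternally expressed long noncoding RNA (chromosome 7, 142575529 to 142578143, minus strand, GENCODE M21 on build GRCm38, as for all gene positions), fell in p21 cells. The size of that fall changed when replicate 3 was left out of a single group. H19 stood at 153.9, 247.3 and 662.7 CPM in control replicates 1 to 3, at 71.44, 63.79 and 172.5 in p21 and at 124.6, 114.6 and 325.7 in p16. The p21 libraries lay low and replicate 3 of each group lay highest, so that p21 replicate 3 fell within the range of the control group. H19 was 3.46-fold lower in p21 than in control cells (-1.79 ± 0.618 SE on the log2 scale, adjusted p = 0.0432). Between libraries of the same number it was 2.15-, 3.88- and 3.84-fold lower. Leaving out control replicate 2 ended the call (adjusted p = 0.0567), and so did leaving out control replicate 3 (0.184), p21 replicate 1 (0.14) or p21 replicate 2 (0.133), or using DESeq2 (0.0589). H19 kept its call with the replicate number as a block, with a replicate 3 term and with replicates 1 and 2 only. The lowest adjusted p over the 14 alternatives was 3.55e-06. The log2 fold change was -0.97 without control replicate 3 and -2.39 without p21 replicate 3. In p16 cells H19 was 1.88-fold lower than in control cells and did not pass (adjusted p = 0.399), but passed with the replicate block (0.00354). That log2 fold change of -0.91 became -0.08 without control replicate 3 (adjusted p = 0.947) and -1.57 without p16 replicate 3 (0.194). Between p21 and p16 cells (1.84-fold lower, adjusted p = 0.378) it likewise passed with the block (0.00184), while the log2 fold change of -0.88 became -0.22 without p16 replicate 3 (0.866) and -1.48 without p21 replicate 3 (0.168).

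Igf2, the paternally expressed growth factor gene next to H19 (chromosome 7, 142650766 to 142666816, minus strand), did not pass in any of the 3 comparisons. Its levels were 201.6, 307.3 and 502.9 CPM in control, 198.4, 265.7 and 465.2 in p21 and 197.2, 255.2 and 419.3 in p16 replicates 1 to 3. The spread within each group was wider than any difference between groups, with replicate 3 highest each time. The log2 fold change was -0.12 ± 0.399 SE in p21 (adjusted p = 0.828) and -0.21 ± 0.399 in p16 cells (adjusted p = 0.796, 0.0322 with the block). The log2 ratio of H19 over Igf2 CPM was -0.1 ± 0.43 (SD, n = 3) in control, -1.65 ± 0.35 in p21 and -0.73 ± 0.4 in p16 libraries. The receptor gene Igf2r, whose product takes IGF2 up and carries it to lysosomes, stood at 331.1, 383.6 and 401.6 CPM in control and 442.3, 461.8 and 473.4 in p21 replicates 1 to 3, a 1.23-fold rise (adjusted p = 0.0105). All 3 p21 libraries lay above all 3 control libraries. Airn, the paternal noncoding RNA antisense to Igf2r, was at 2.093 ± 0.5547 CPM in control and 1.581 ± 0.5002 in p21 cells and did not pass (adjusted p = 0.276). Grb10, an adaptor that dampens insulin and IGF receptor signals, was abundant (774 ± 127.9 CPM in control, 634 ± 63.91 in p21) and 1.22-fold lower without passing (adjusted p = 0.0931, 0.000443 with the block). Plagl1, a zinc finger transcription factor known to act on other imprinted genes, was at 38.33 ± 4.329 CPM in control and 54.16 ± 14.86 in p21 cells (adjusted p = 0.122). With replicates 1 and 2 only, its adjusted p was 0.00872, and with the block 0.00581.

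**Figure D2:**
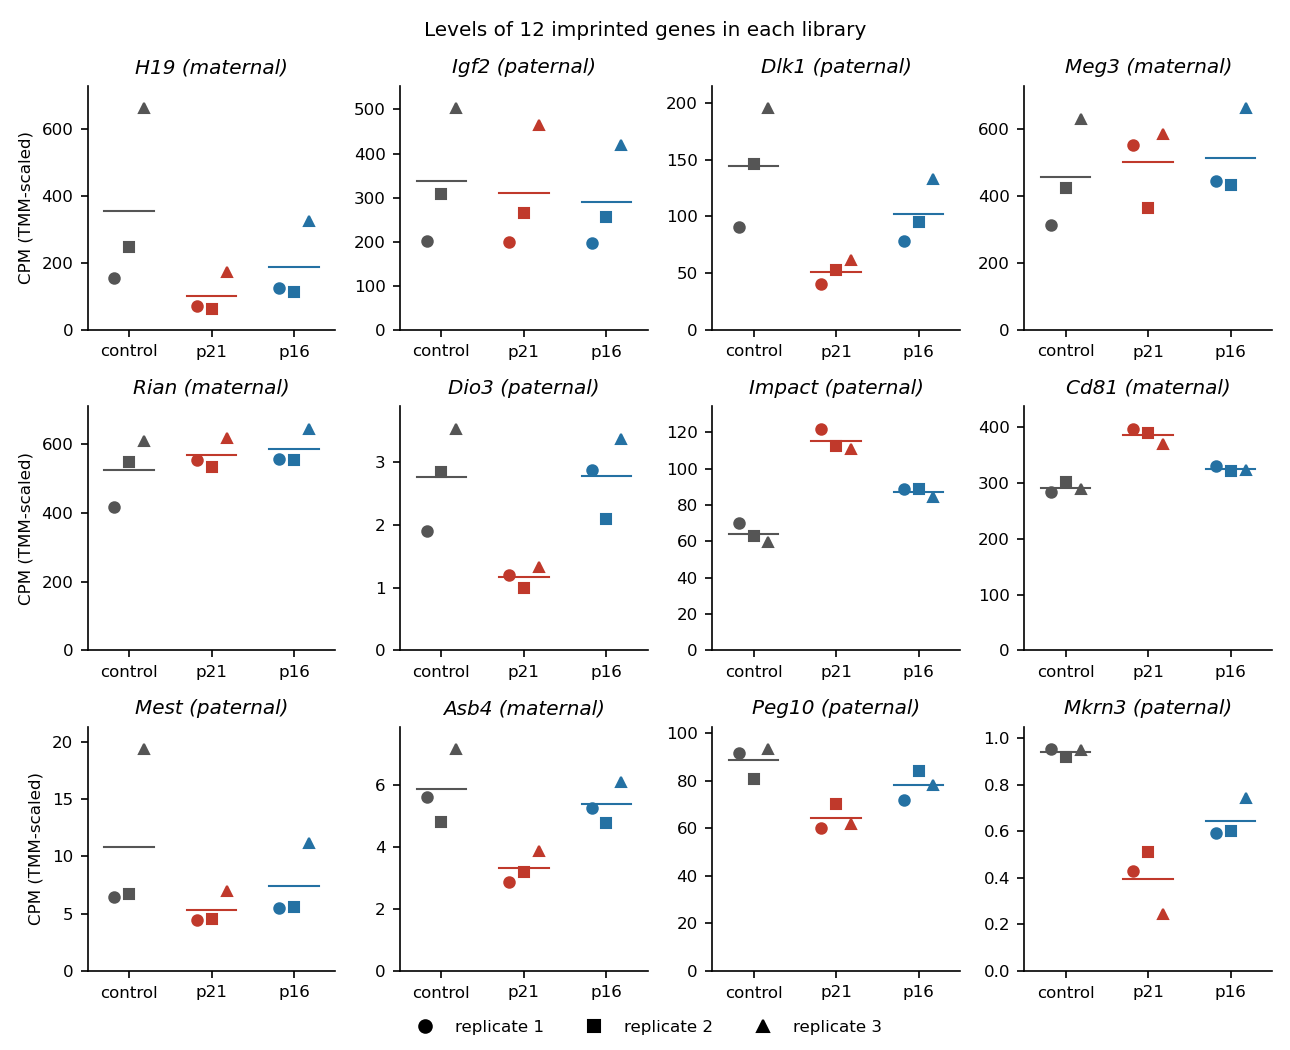
CPM after TMM scaling (vertical axes, from 0) of 12 imprinted genes in each of the 9 libraries, with the mean of each group as a line and the replicate number as the symbol. H19, Igf2, Dlk1 and Mest were highest in replicate 3 of each group, while Impact and Cd81 separated the p21 from the control libraries with little spread.

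The H19 RNA also holds a hairpin for 2 mature miRNAs, and Igf2 and Mest each hold another. Their RefSeq sequences are shown because the counts of the host RNA are the nearest these data come to them. The seed, bases 2 to 8, is in capitals.
miR-675-5p (H19): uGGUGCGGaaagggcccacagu
miR-675-3p (H19): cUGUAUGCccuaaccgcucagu
miR-483-5p (Igf2): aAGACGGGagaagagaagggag
miR-483-3p (Igf2): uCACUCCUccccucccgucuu
miR-335-5p (Mest): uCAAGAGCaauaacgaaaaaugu
miR-335-3p (Mest): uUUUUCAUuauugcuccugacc
None of these 6 shared a seed with another miRNA inside the 38 genes. In all, 45 mature miRNAs of the RefSeq table lie on the same strand within 8 of the 38 genes, 26 of them in Mirg and 6 in Rian, and 1 seed (GGUUGCC) was shared, by miR-453 and miR-496a-5p in Mirg. The count table had rows for 23 of their 24 genes, none above 57 reads in a library, which is no measurement of the mature forms.

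The Dlk1 to Dio3 cluster on chromosome 12 pairs the paternal coding genes Dlk1, Rtl1 and Dio3 with the maternal noncoding RNAs Meg3, Rian and Mirg. In p21 cells Dlk1 and Dio3 fell, while none of the 3 noncoding RNAs passed without the block. The 250 bases before the RefSeq starts of Dlk1 and Meg3, which lie on the plus strand of build GRCm38.p6, are shown because Dlk1 was called in p21 cells and its neighbour Meg3 was not; the difference between the changes of the genes was not tested. CG dinucleotides, the sites of DNA methylation, are in capitals.
Dlk1, chr12:109452573-109452822: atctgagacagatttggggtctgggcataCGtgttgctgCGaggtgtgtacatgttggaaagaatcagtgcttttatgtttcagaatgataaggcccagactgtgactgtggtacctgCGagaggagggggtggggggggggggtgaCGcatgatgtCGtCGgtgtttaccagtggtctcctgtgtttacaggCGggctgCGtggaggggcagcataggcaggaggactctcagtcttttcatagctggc
Meg3, chr12:109540746-109540995: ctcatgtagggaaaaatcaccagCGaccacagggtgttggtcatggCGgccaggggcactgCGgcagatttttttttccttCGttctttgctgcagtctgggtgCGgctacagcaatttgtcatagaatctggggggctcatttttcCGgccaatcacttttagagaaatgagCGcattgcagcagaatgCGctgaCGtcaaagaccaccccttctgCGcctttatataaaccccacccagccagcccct
The Dlk1 stretch holds 8 CG and the Meg3 stretch 10, and 40.3% and 35.6% of all 32851 such stretches in the RefSeq table hold more. The stretch before Dio3 holds 21. The letters TATAAA, searched on both strands, were found on each strand of the Meg3 stretch, in overlapping positions, and once before Dio3, but not in the Dlk1 stretch, and 12.4% of all stretches hold them. The letters TGCCGC, the core known for the zinc finger protein ZFP57, were found in the Meg3 stretch and in 7 of 49 stretches of 6 of the 32 imprinted genes in that table (14.3% of stretches, against 8.68% of all), namely Meg3, Mest, Zdbf2, Plagl1, Copg2 and Zim1. The palindrome GGGGCCCC, known for PLAGL1, was found before Peg3 and Ppp1r9a only among the 49 (4.08%, against 0.889% of all). Stretches of the same gene can overlap, so a site may count more than once. For TGCCGC, those of Mest start at 30737800 and 30737803. Methylation and binding were not measured in these libraries.

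Dlk1 (chromosome 12, 109452823 to 109463336, plus strand) encodes a membrane protein of the Delta-Notch family that holds back the formation of fat cells. Its levels were 90.83, 146.1 and 195.3 CPM in control, 40.24, 52.45 and 61.38 in p21 and 78.29, 95.37 and 132.9 in p16 replicates 1 to 3. All 3 p21 libraries lay below all libraries of the other groups, while p16 and control overlapped. Dlk1 was 2.81-fold lower in p21 than in control cells (-1.49 ± 0.282 SE on the log2 scale, adjusted p = 0.00265), and this call held in each of the 14 alternatives run. Against p16 cells it was 1.99-fold lower (adjusted p = 0.0458), a call lost without any 1 of the 6 libraries (adjusted p = 0.172, 0.116 and 0.0516 without p21 replicates 1 to 3, and 0.0605, 0.0945 and 0.14 without p16 replicates 1 to 3). In p16 cells it was 1.41-fold lower than in control (adjusted p = 0.306, 0.00428 with the block). Dio3 (chromosome 12, 110279068 to 110281097, plus strand), whose enzyme inactivates thyroid hormone, stood at 1.904, 2.844 and 3.528 CPM in control, 1.198, 0.9933 and 1.331 in p21 and 2.868, 2.083 and 3.358 in p16 replicates 1 to 3. The p21 libraries were again the lowest of all 9, and the other groups covered the same range. It was 2.35-fold lower in p21 than in control (adjusted p = 0.00452) and 2.36-fold lower than in p16 cells (adjusted p = 0.0156). The second call was lost without p21 replicate 1 (0.0665), p21 replicate 2 (0.0614), p16 replicate 1 (0.0536) or p16 replicate 3 (0.0542).

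Meg3 (chromosome 12, 109541001 to 109571726, plus strand) stood at 313.9, 423.9 and 628.3 CPM in control, 551.8, 363.6 and 583.7 in p21 and 443.7, 432.4 and 660.6 in p16 replicates 1 to 3. The groups overlapped fully, and the log2 fold change in p21 cells was 0.13 ± 0.267 SE (adjusted p = 0.717). Rian, the host of many small nucleolar RNAs, was at 524.3 ± 98.78 CPM in control and 568.1 ± 43.13 in p21 cells (log2 fold change 0.12 ± 0.126, adjusted p = 0.495). Mirg, the host of a miRNA cluster, was at 15.18 ± 3.335 and 11.61 ± 1.707 CPM and did not pass (adjusted p = 0.154, 0.0182 with the block). Rtl1, a retrotransposon-derived gene of the placenta, was at 0.6405 ± 0.1415 and 0.4143 ± 0.1739 CPM (adjusted p = 0.169). The log2 ratio of Dlk1 over Meg3 CPM was -1.67 ± 0.13 (SD, n = 3) in control, -3.27 ± 0.49 in p21 and -2.33 ± 0.16 in p16 libraries. The 3 groups of 3 did not overlap in it. This ratio, and those of 3 other neighbouring pairs, were chosen after values were seen and are given with no test.

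**Figure D3:**
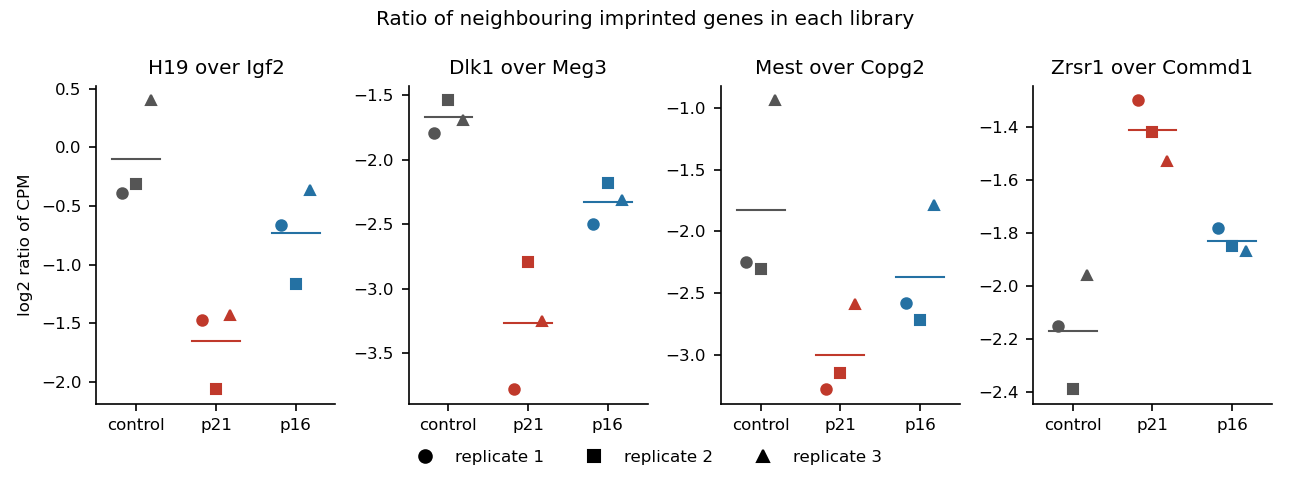
Log2 ratio of CPM of 4 neighbouring pairs of imprinted genes (vertical axes, each with its own range) in each of the 9 libraries, with group means as lines. The p21 libraries lie lowest for H19 over Igf2 (mean -1.65) and Dlk1 over Meg3 (-3.27), and highest for Zrsr1 over Commd1 (-1.41).

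Around the Prader-Willi and Angelman cluster on chromosome 7, the paternal genes moved in both directions. Ndn (62346569 to 62350262, plus strand), which encodes necdin, a growth-restraining protein of the MAGE family, stood at 83.2, 76.65 and 68.18 CPM in control, 100.7, 109.5 and 92.96 in p21 and 90.14, 89.93 and 84.5 in p16 replicates 1 to 3. Both overexpressing groups lay above the control group with no overlap. Ndn was 1.33-fold higher in p21 cells (0.41 ± 0.081 SE on the log2 scale, adjusted p = 0.00325). In p16 cells the 1.16-fold difference did not pass (adjusted p = 0.14, 0.0187 with the block). Mkrn3, an E3 ubiquitin ligase gene known as a brake on puberty, was at 0.952, 0.9205 and 0.9483 CPM in control and at 0.4269, 0.5113 and 0.2451 in p21 replicates 1 to 3. It was 2.36-fold lower (adjusted p = 0.00534), on no more than 73 reads in a library. Peg12, a member of the Frat family of GSK3-binding proteins, stood at 15.92, 12.87 and 12.33 CPM in control and 10.76, 11.2 and 11.61 in p21 replicates 1 to 3 and was 1.23-fold lower (adjusted p = 0.0433). That call was lost in 7 of 14 alternatives, among them without control replicate 1 (0.127) or 2 (0.0571) and without p21 replicates 1 (0.137), 2 (0.0981) or 3 (0.0636). Magel2 was low, with 18 to 87 reads a library, and did not pass (log2 fold change -0.19, adjusted p = 0.826, and 0.82 without control replicate 3). Ube3a, the maternal E3 ubiquitin ligase gene of this cluster, was at 47.89 ± 0.5887 CPM in control and 49.4 ± 0.9671 in p21 cells, with a log2 fold change of 0.04 ± 0.0401 SE (adjusted p = 0.403).

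On chromosome 6, paternal Sgce and Peg10 and maternal Ppp1r9a and Asb4 lie together. Peg10, a retrotransposon-derived gene needed in the placenta (4747306 to 4760517, plus strand), stood at 91.73, 80.95 and 93.31 CPM in control, 60.28, 70.29 and 61.96 in p21 and 71.85, 84 and 78.27 in p16 replicates 1 to 3. All p21 libraries lay below all control and p16 libraries. It was 1.38-fold lower in p21 than in control cells (adjusted p = 0.00184) and 1.22-fold lower than in p16 cells, which just missed the threshold (adjusted p = 0.0519, 0.0209 with the block). Asb4, part of a ubiquitin ligase of the SOCS box type (5383386 to 5433022, plus strand), stood at 5.594, 4.808 and 7.14 CPM in control, 2.851, 3.199 and 3.869 in p21 and 5.261, 4.768 and 6.09 in p16 replicates 1 to 3. The p21 libraries were the 3 lowest, with control and p16 in the same range. Asb4 was 1.77-fold lower than in control (adjusted p = 0.00457) and 1.63-fold lower than in p16 cells (adjusted p = 0.0294). The second call was lost without p21 replicate 1 (0.124) or 2 (0.0912) and without p16 replicate 1 (0.0781), 2 (0.0521) or 3 (0.0944). Sgce, which encodes epsilon-sarcoglycan, stood at 29.61, 32.34 and 33.41 CPM in control, 26.3, 26.54 and 28.64 in p21 and 33.14, 30.75 and 36.19 in p16 replicates 1 to 3. It was 1.17-fold lower in p21 than in control cells (adjusted p = 0.0307) and 1.23-fold lower than in p16 cells (adjusted p = 0.0266), with no overlap of the p21 group with either. The first Sgce call was lost without control replicate 2 (0.0936) or 3 (0.0995) and without p21 replicate 1 (0.121) or 2 (0.102), and the second without p21 replicate 1 (0.12) or 2 (0.0938) and p16 replicate 1 (0.0788) or 3 (0.0857). Ppp1r9a, the neurabin gene, was at 1.94 ± 0.4227 CPM in control and 1.431 ± 0.2053 in p21 cells and did not pass (adjusted p = 0.105).

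Farther along chromosome 6, Mest, a paternal gene of a hydrolase family known as a mark of fetal growth, stood at 6.429, 6.759 and 19.36 CPM in control, 4.476, 4.514 and 6.95 in p21 and 5.523, 5.545 and 11.15 in p16 replicates 1 to 3. Replicate 3 was highest in each group, and the p21 and control ranges overlapped only through it. The 2.05-fold lower level in p21 cells did not pass in the fit of the 9 libraries (-1.03 ± 0.448 SE on the log2 scale, adjusted p = 0.0939), and without control replicate 3 it was -0.31 (adjusted p = 0.475). With replicates 1 and 2 only, the log2 fold change was -0.55 and passed (adjusted p = 0.00599). With the block it was -0.89 and passed as well (0.000919). Copg2, a coat protein gene that overlaps the end of Mest on the other strand, stood at 30.55, 33.49 and 37.18 CPM in control and 43.46, 39.94 and 41.75 in p21 replicates 1 to 3. It was 1.24-fold higher in p21 cells, without overlap (adjusted p = 0.0133). The Copg2 call was lost without p21 replicate 1 (0.0519).

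In the Kcnq1ot1 region of chromosome 7, Cd81, a tetraspanin of the cell surface (143052739 to 143067934, plus strand), stood at 283.4, 301.6 and 288.1 CPM in control, 396.9, 389.6 and 368.9 in p21 and 330.6, 320.6 and 323.2 in p16 replicates 1 to 3. The 3 groups did not overlap, with p16 between the others. Cd81 was 1.32-fold higher in p21 than in control cells (0.4 ± 0.0447 SE on the log2 scale, adjusted p = 0.000135) and 1.19-fold higher than in p16 cells (adjusted p = 0.00859, 0.0535 without p21 replicate 1). Its 1.12-fold higher level in p16 than in control cells did not pass (adjusted p = 0.0628), but passed with DESeq2 (0.0121) and with the block (0.0307). Nap1l4, a histone chaperone gene, stood at 153, 138.5 and 131.5 CPM in control and 128.6, 125.5 and 125.4 in p21 replicates 1 to 3 and was 1.11-fold lower (adjusted p = 0.0487). It lost that call in 9 of 14 alternatives, with an adjusted p of 0.131 without control replicate 1, 0.0855 without control replicate 2 and 0.101, 0.121 and 0.105 without p21 replicates 1 to 3. The noncoding RNA Kcnq1ot1 (2.362 ± 0.8382 CPM in control, 1.795 ± 0.169 in p21) did not pass (adjusted p = 0.339), nor did Phlda2 (log2 fold change 1.17, adjusted p = 0.204, but 2.64 and 0.0149 without control replicate 1).

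Impact had the lowest adjusted p of the 35 in each of the 3 comparisons and was the only 1 called in all of them. Its protein binds GCN1 and restrains the kinase GCN2, which slows translation when amino acids are short. It stood at 70, 62.83 and 59.97 CPM in control, 122.1, 112.3 and 110.9 in p21 and 88.67, 89.08 and 84.31 in p16 replicates 1 to 3. The 3 groups were fully separate, with p16 in the middle. Impact was 1.79-fold higher in p21 (0.84 ± 0.0657 SE on the log2 scale, adjusted p = 2.22e-05) and 1.36-fold higher in p16 than in control cells (0.44 ± 0.0655, adjusted p = 0.00776). The p21 level was 1.32-fold above the p16 level (adjusted p = 0.00545). None of these 3 calls was lost in any of the 14 alternatives run for it.

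Among the remaining genes, Gnas, which encodes the alpha subunit of the stimulatory G protein, stood at 1114, 1093 and 1056 CPM in control and 1286, 1301 and 1261 in p21 replicates 1 to 3, a 1.18-fold rise (adjusted p = 0.00132). The libraries of the 3 groups did not overlap, p16 lying between at 1152, 1161 and 1180 CPM. The 1.1-fold difference from p16 cells (adjusted p = 0.0465) was lost in 9 of 14 alternatives, with an adjusted p of 0.143, 0.123 and 0.0678 without p21 replicates 1 to 3 and 0.156, 0.113 and 0.107 without p16 replicates 1 to 3. Zrsr1, a splicing factor gene that lies inside Commd1 on the other strand, stood at 8.15, 6.993 and 8.535 CPM in control and 11.43, 10.9 and 10.15 in p21 replicates 1 to 3. It was 1.37-fold higher in p21 cells (adjusted p = 0.0043). Commd1, a regulator of copper handling and NF-kappaB, moved the other way, from 36.1, 36.78 and 33.09 CPM in control to 28.09, 29.13 and 29.29 in p21 replicates 1 to 3, a 1.23-fold fall (adjusted p = 0.00241). Neither pair of groups overlapped, and the log2 ratio of Zrsr1 over Commd1 went from -2.17 ± 0.22 (SD, n = 3) in control to -1.41 ± 0.12 in p21 libraries. Nnat, which encodes a small membrane protein of the endoplasmic reticulum, stood at 13.99, 10.33 and 10.54 CPM in control and 8.249, 9.188 and 7.546 in p21 replicates 1 to 3 and was 1.4-fold lower (adjusted p = 0.0157). That call was lost without p21 replicate 1 (0.0543) or 3 (0.0525). The zinc finger genes Peg3 (adjusted p = 0.131), Zim1 (0.778) and Zdbf2 (0.124) did not pass, with log2 fold changes of -0.33, -0.12 and -0.4 in p21 cells. Peg3 and Zdbf2 passed with replicates 1 and 2 only (0.0233 and 0.0327) and with the block (0.00136 and 0.00425). Zdbf2 was 1.52-fold lower in p21 than in p16 cells, where it did not pass either (adjusted p = 0.0667, 0.001 with the block).

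The spread between libraries of a group was wide for a part of these genes. It was taken as the SD of log2 CPM about the group means over the 9 libraries, with 6 degrees of freedom, among genes with a mean of at least 10 CPM. Of the 21 imprinted genes at that level, 9 lay above the value that cuts off the upper 10% of the 8794 genes (0.174), and their median was 0.114, against 0.081. H19 had 0.908, and only 10 of the 8794 genes were more variable. Igf2 followed with 0.614 (29 more variable), Dlk1 with 0.43 (109) and Meg3 with 0.412 (125). The next were Plagl1 at 0.37, Mirg at 0.297, Peg3 at 0.235, Rian at 0.19 and Grb10 at 0.185. At the other end Ube3a had 0.0265 and Gnas 0.0283, with 98.3% and 97.8% of genes more variable. The 11 maternal genes at that level had a median of 0.111 and a range of 0.0265 to 0.908, and the 9 paternal genes a median of 0.131 and a range of 0.0831 to 0.614. Within groups, the coefficient of variation of H19 was 76.4% in control and 59.1% in p21 cells, that of Igf2 45.3% and 44.8%, and that of Cd81 3.26% and 3.78%.

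**Figure D4:**
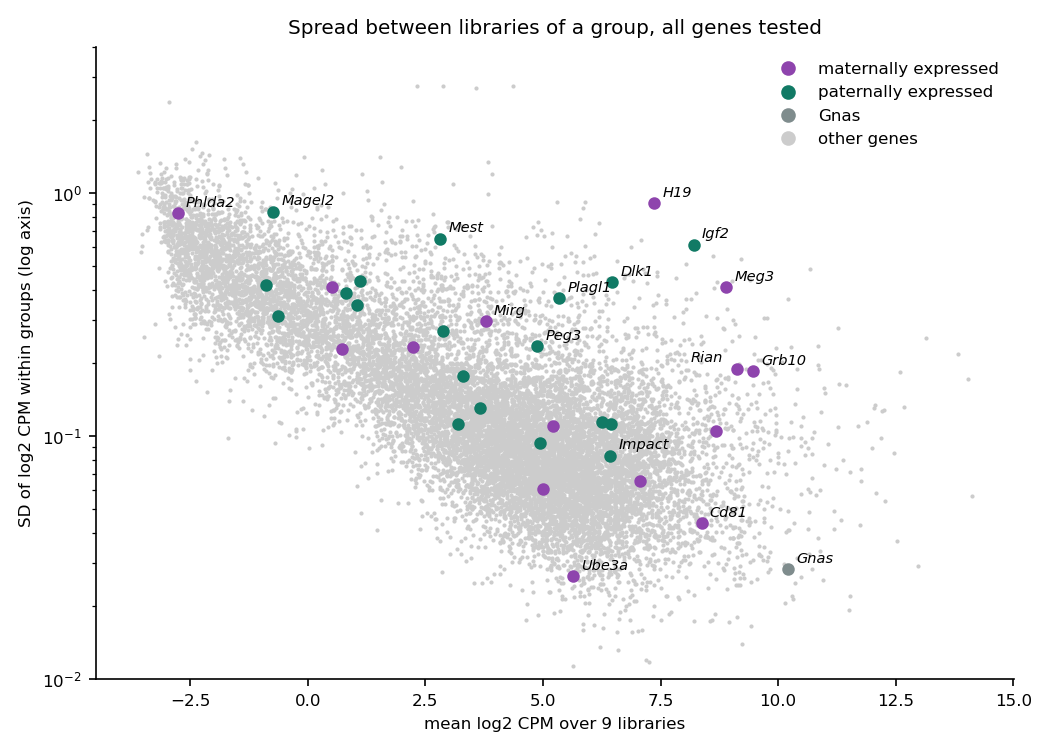
SD of log2 CPM within groups (vertical axis, log scale) against mean log2 CPM (horizontal axis) for the 14572 genes tested, with the 35 imprinted genes in colour. H19 (0.908), Igf2 (0.614), Dlk1 (0.43) and Meg3 (0.412) lie near the upper edge of genes of their level, and Ube3a (0.0265) and Gnas (0.0283) near the lower edge.

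For some of the genes the spread went with replicate 3. It was the highest library in all 3 groups for 15 of the 35 genes (42.9%, against 15.8% of all genes), 6 of them maternal and 9 paternal, and the lowest in all 3 for Plagl1, Ndn, Nap1l4 and Impact (4 of 35, against 17.9% of all genes). H19 was 3.3-, 2.55- and 2.72-fold higher in replicate 3 than the mean of replicates 1 and 2 in control, p21 and p16 cells, and Igf2 was 1.98-, 2- and 1.85-fold higher. For Mest these ratios were 2.94, 1.55 and 2.01, for Dlk1 1.65, 1.32 and 1.53, and for Meg3 1.7, 1.28 and 1.51. Replicate 3 also differed in Xist and Ddx3y, and whether sex or another difference in its origin goes with these ratios was not tested. Without replicate 3 the SD of H19 was 0.292 and that of Mest 0.0299 (0.651 with it), while that of Igf2 was 0.338 and that of Dlk1 0.341. Over the 21 genes the median without it was 0.105, against 0.0676 for all genes of that level, and 9 lay above the upper 10% limit (0.144). Of these, 7 were the same genes as before, with Peg10 and Peg12 in the place of Peg3 and Grb10.

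A list of 17 genes that act on methylation at imprints held genes that set or keep it and also Tet1, Tet2 and Tet3, whose enzymes start its removal. Of the 16 tested, 13 fell in p21 cells and none rose (81.2%, against 39.9% of all genes, 20.7% lower; median log2 fold change -0.44). Tet1 and Tet3, named after their values were seen, were among the 13. Uhrf1, which guides the maintenance methyltransferase to freshly copied DNA, stood at 120.1, 104.4 and 104.5 CPM in control, 45.51, 50.23 and 53.52 in p21 and 73.71, 70.91 and 78.29 in p16 replicates 1 to 3. Dnmt1, that methyltransferase, stood at 164.8, 143.9 and 149.7 CPM in control, 80.22, 90.02 and 85.47 in p21 and 115.6, 120.9 and 110.7 in p16 replicates 1 to 3. For both genes the 3 groups did not overlap, with p16 between the others. Uhrf1 was 2.2-fold lower in p21 (adjusted p = 1.43e-05) and 1.48-fold lower in p16 than in control cells (0.00669), and Dnmt1 was 1.79-fold (2.22e-05) and 1.32-fold lower (0.0102). Zfp57, the zinc finger protein that protects methylated imprints, was 1.52-fold lower in p21 (adjusted p = 0.000618) and 1.12-fold lower in p16 cells, where it did not pass (0.295). Its partner Trim28 was 1.35-fold lower in p21 (adjusted p = 0.000138), and so were Ctcf, which insulates Igf2 from its enhancers on the maternal copy (1.36-fold, 0.000256), Hells (1.57-fold, 0.000302) and Setdb1 (1.31-fold, 0.000532). In p16 cells 4 of the 16 were lower and none higher (against 7.22% of all genes): Uhrf1, Dnmt1, Trim28 and Ctcf. This count was 3 without control replicate 1 and 2 without any 1 of the other 5 libraries. Uhrf1 and Dnmt1 were called throughout, while Trim28 and Ctcf were called in none of these fits. Setdb1, 1.14-fold lower in p16 than in control cells, did not pass (adjusted p = 0.0657) but passed with the block (0.0289). Between p21 and p16 cells 9 were lower and none higher (56.2%, against 12.8% of all genes, 6.64% lower). Without p21 replicates 1 or 2 that count was 3 or 5, and without p16 replicates 1, 2 or 3 it was 4, 5 or 5.

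**Figure D5:**
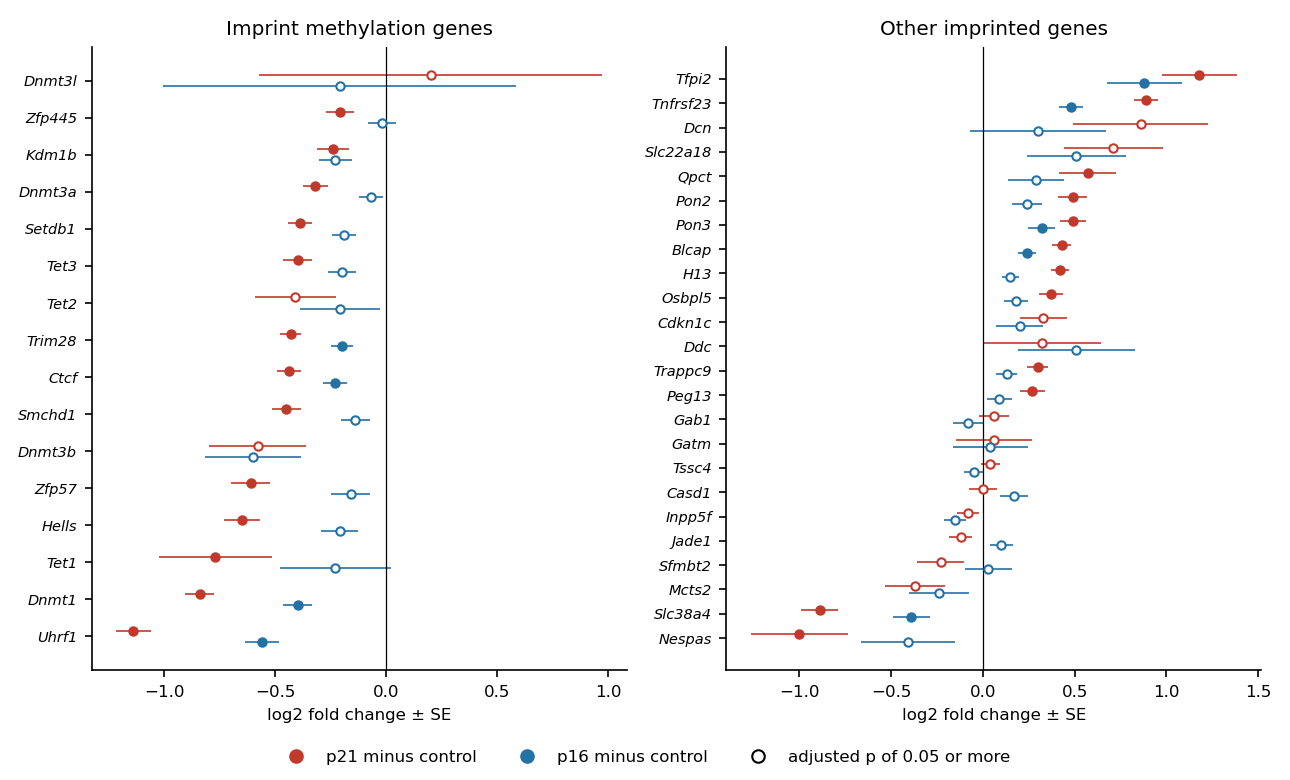
Log2 fold change with its standard error (horizontal axes) of 16 genes that act on imprint methylation, Tet genes included, and 24 other imprinted genes in p21 (red) and p16 (blue) cells against control. Filled points passed the adjusted p threshold of 0.05: 13 lower in p21 and 4 lower in p16 cells on the left, and 10 higher and 2 lower in p21 cells on the right.

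Beyond the 38, a list of 34 other imprinted genes gave 33 rows and 24 tested genes. In p21 cells 10 were higher and 2 lower than in control (12 of 24, against 39.9% of all genes; median log2 fold change 0.31), and in p16 cells 4 were higher and 1 lower (20.8%, against 7.22% of all genes). Tnfrsf23, a decoy receptor for the death ligand TRAIL that lies beyond Nap1l4 on chromosome 7, rose 1.85-fold in p21 (62.13 to 115.2 CPM, adjusted p = 1.67e-05) and 1.39-fold in p16 cells (adjusted p = 0.00641). The protease gene H13 (1.34-fold, adjusted p = 0.000154), Blcap, which surrounds Nnat (1.35-fold, 0.00021), and the paraoxonase genes Pon3 (1.41-fold, 0.000624) and Pon2 (1.4-fold, 0.00122) rose in p21 cells as well. Slc38a4, an amino acid transporter gene, fell 1.85-fold in p21 (131.3 to 70.78 CPM, adjusted p = 0.000174) and 1.31-fold in p16 cells (adjusted p = 0.0498). The other to fall in p21 cells, named after its value was seen, was the Gnas antisense RNA Nespas (0.7958 to 0.3953 CPM, adjusted p = 0.0141). Cdkn1c, the imprinted cyclin-dependent kinase inhibitor p57, was at 12.67 CPM in control and 15.98 in p21 cells and did not pass (1.26-fold, adjusted p = 0.0659), but passed with replicates 1 and 2 only (0.0315). The others of the 5 calls in p16 cells were Blcap, Pon3 and Tfpi2 (1.84-fold higher, adjusted p = 0.0346). Pon2, 1.18-fold higher in p16 than in control cells, did not pass (adjusted p = 0.0962) but passed with the block (0.00625). Without control replicate 1 the list gave 4 calls, with Pon3 (adjusted p = 0.0629) and Slc38a4 (0.0881) lost and Pon2 (0.0434) gained. It gave 2 without control replicate 2 or 3 and 1 without any 1 of the p16 libraries.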

How the data were processed

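The deposited table holds raw read counts per gene symbol for 9 RNA-seq libraries, made by the authors. The submitters' processing notes name build mm10 and the tools featureCounts 1.4.6, Subread, Bowtie2 2.2.6 and TopHat2 2.0.14. The library kit was TruSeq RNA v2, per the labels' protocols, and for the annotation used, strand and multi-mapping reads the setting is not given in the sources used here. Libraries held 56.9 to 76.1 M counts, and each pair of a group differed by more than sampling noise (chi-square per degree of freedom 10.4 to 101.2).

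Counts were fitted with edgeR 4.0.16 (R 4.3.3): TMM scaling, filterByExpr, 3 group means over all 9 libraries, the quasi-likelihood F test and Benjamini-Hochberg adjustment over the 14572 genes left, with a threshold of 0.05. The filter was met by 35 of the 38 imprinted genes. CPM used TMM-scaled library sizes, and CPM per kb the exon length in GENCODE M21, which need not be the authors' annotation. The standard error is the log2 fold change divided by the square root of F. The script was tested on simulated data. Alternatives were DESeq2 1.42.0, other scalings, no filter, a replicate term or block, replicates 1 and 2 only, only the 6 libraries compared, and leaving out each library. Any of the 38 genes may be named, and of the 2 other gene lists up to 6 called genes per comparison by adjusted p, with Cdkn1c, Dnmt1 and Uhrf1. The genes and lists were chosen with earlier results of these data known.

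Groups share replicate numbers, and the labels do not say what a number marks. The correlation of the deviations of same-numbered libraries from the mean of their group was 0.25, 0.11 and 0.55 between p16 and control and 0.16, 0.29 and 0.48 between p21 and p16, all over the limit of 0.1 set for treating them as pairs, so blocked values stand beside those results where they change a call. This pairing is read from the data alone. Replicate 2 of p16 correlated more with control replicate 1 (0.3) than with control replicate 2 (0.11), so the matching of these numbers is uncertain there. Between p21 and control the correlations were 0.18, 0.03 and 0.49, and no pairing was assumed.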

Additional observations from a re-analysis of the deposited data

How the results depend on the processing

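For p21 against control, 16 to 24 of the imprinted genes were called under the alternatives that kept all libraries or replicates 1 and 2, and 12 to 20 when 1 library was left out, with all calls in the same direction. With the replicate number as a block, a pairing not assumed for this comparison, the count was 24 (8 higher, 16 lower). This was 68.6% of the 35, against 49.7% of all genes with the block. The genes added were Plagl1 (adjusted p = 0.00581), Zdbf2 (0.00425), Grb10 (0.000443), Mirg (0.0182), Mest (0.000919) and Peg3 (0.00136). Of the maternal genes 4 to 9 were called when 1 library was left out. With replicates 1 and 2 only, Magel2 turned to 0.43, Zim1 to 0.33 and Kcnq1ot1 to 0.01 (log2). Leaving out 1 library gave log2 fold changes of -0.54 to 0.29 for Igf2, -0.07 to 0.44 for Meg3, -0.02 to 0.24 for Rian, -0.58 to 0.82 for Magel2 and -0.32 to 0.38 for Zim1, none of them called. Without control replicate 3, H19 was at -0.97 and Mest at -0.31, and without control replicate 1 Phlda2 was at 2.64 and called. The cause of the changes named here was not tested.

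For p16 against control, the 35 genes gave 2 calls with DESeq2, 6 with the replicate block and 5 with a replicate 3 term. Maternal genes gave 1, 2 and 2, and paternal genes 4 with the block and 3 with the term. The imprint methylation genes gave 2 with replicates 1 and 2 only and 2 with the 6 libraries compared, and 2 to 3 when 1 library was left out. Other imprinted genes gave 8 with the replicate 3 term, 1 with replicates 1 and 2 only and 1 to 4 when 1 library was left out. All genes gave 1820 calls with DESeq2, 2473 with the block, 2645 with the term, 593 with replicates 1 and 2 only, 555 with the 6 libraries and 222 to 873 when 1 was left out. Mirg moved to -0.02 with library size alone, -0.01 with the block, 0.0 with the term and -0.03 with replicates 1 and 2 only, Phlda2 to -0.14 with the latter and Dio3 to -0.02 with library size alone. Leaving out 1 library gave -0.57 to 0.2 for Igf2, -0.05 to 0.48 for Meg3, -0.22 to 0.19 for Mirg, -0.28 to 0.05 for Peg3, -0.97 to 0.18 for Mest, -0.4 to 0.05 for Plagl1, -0.16 to 0.08 for Grb10, -0.24 to 0.05 for Asb4, -0.33 to 1.62 for Phlda2, -0.2 to 0.23 for Dio3, -0.16 to 0.03 for Peg12, -0.01 to 0.69 for Zim1 and -0.27 to 0.37 for Kcnq1ot1, none of them called.

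For p21 against p16, the 35 genes gave 18 calls with the block and 17 with the term, maternal genes 7 and 6, paternal genes 10 and 10 (7 with DESeq2), other imprinted genes 9 and 10 (3 with no filter) and all genes 3496 and 3622. When 1 library was left out the ranges were 1 to 7 for the 35, 0 to 2 for maternal, 1 to 5 for paternal, 3 to 9 for imprint methylation, 2 to 6 for other imprinted and 600 to 1790 for all genes. Meg3 moved to 0.06 with replicates 1 and 2 only. Leaving out 1 library gave -0.33 to 0.45 for Igf2, -0.17 to 0.19 for Meg3, -0.11 to 0.03 for Rian and -0.37 to 0.08 for Airn, none of them called. Scaling by library size alone moved the median of all genes by at most 0.035 (log2), and the share of higher genes among all calls to 41.7%, 39.4% and 44.9% in the 3 comparisons. Mkrn3, Dio3, Airn, Rtl1, Magel2, Zim1, Phlda2, Ppp1r9a and Kcnq1ot1 rest on the fewest reads of the tested genes. Where an arm was left with 2 libraries, the spread was pooled over the groups.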
